A study of Mus musculus with 6 samples.

Results

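The genes described here encode 8 LIM-domain proteins: the zyxin family members TRIP6, zyxin (Zyx), LPP, ajuba (carried on the array under its older symbol Jub) and LIMD1, and the FHL proteins FHL1, FHL2 and FHL3. The members were chosen by gene family, with the TEAD4-over-input enrichment of these same data already known, so the TEAD4 values below describe the members and test nothing. A probe belonged to a member when the array annotation named that gene for it. All 8 members had probes, 296 in total, and all 8 were among the 16533 genes, of 16839 probed symbols, that had enough neighbouring probes to be scored.

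LIM domains are zinc-binding modules, each a tandem pair of zinc fingers, through which proteins bind other proteins. Zyxin family proteins carry their LIM domains at the carboxyl end, sit at focal adhesions, adherens junctions and actin stress fibres, respond to mechanical tension, and can enter the nucleus. Several of them (TRIP6, ajuba, LIMD1 and zyxin) bind the LATS kinases or their partners in the Hippo pathway, whose output, the coactivators YAP and TAZ, acts on DNA through TEAD factors such as TEAD4. FHL proteins consist almost entirely of LIM domains, are abundant in striated muscle, and act both at the sarcomere and cytoskeleton and as transcriptional cofactors. TEAD factors bind the MCAT element, best known from muscle gene promoters.

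The assay was chromatin immunoprecipitation read on promoter microarrays (ChIP-chip) in C2C12, a mouse myoblast line whose cells fuse into myotubes in low serum. Cells of both groups were infected with a retrovirus, selected with puromycin, switched to 2% horse serum for 5 days of differentiation and fixed for 10 min with 0.4% formaldehyde, and both were precipitated with an anti-Flag antibody. The TEAD4 group carried TEAD4 with a Flag-HA tag, expressed from the vector in infected populations beside whatever TEAD4 the cells make, and the control carried the empty vector. There were 2 TEAD4 samples, called duplicates in the labels, and 1 control sample, each hybridised to 2 array designs (6 arrays). The labels do not say whether the duplicates are separate cultures; their spread may be technical, and the control has no replicate check. On every array the immunoprecipitated (IP) DNA carried Cy5 and the input DNA Cy3, so a dye effect cannot be told apart from enrichment. The labels name the cells both myoblasts and myotubes, and since the arrays measure no RNA this was not checked against markers.

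The level used throughout is log2 of IP over input, centred on each array's median, so 1.00 is 2-fold over input. A window is a probe with all neighbours whose centres lie within 500 bp, holds at least 3 probes and takes their mean; a gene's top window is the one with the highest mean over the TEAD4 samples. The alternative scalings were normexp (a modelled background correction), loess (an intensity-dependent dye correction within each array), no centring, and MAD scaling (every array brought to the same median absolute deviation). The control arrays stood apart from the TEAD4 arrays: median IP signal over background was 1.84 and 2.04 on the control arrays against 3.63 to 5.41 on the TEAD4 arrays, and input signal over background was 5.57 and 7.57 against 3.08 to 3.67. The control arrays alone were scanned with extended dynamic range, per the file headers. The SD over all windows was 1.04 in the control and 0.38 and 0.40 in the TEAD4 samples. Of all windows, 26.4% reached 2-fold over input in the control, against 1.08% and 2.22% in the TEAD4 samples. Before centring, the control arrays had medians of -0.64 and -0.56 and the TEAD4 arrays medians between -0.02 and 0.01 (log2), so centring raised the control only. The part of these differences in any comparison with the control was not tested.

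Of the 4 members with a MCAT or AP-1 match in a listed promoter, Trip6, ajuba and Zyx are printed because Trip6 and Zyx hold the highest TEAD4 levels of the family and ajuba the most matches. They run from 250 bases before to 50 after the RefSeq start (GRCm38.p6), 5′ to 3′ on the gene's strand: chr5:137314192-137314491 (minus strand) for Trip6, chr14:54577612-54577911 (minus strand) for Ajuba and chr6:42349578-42349877 (plus strand) for Zyx. Capitals mark CATTCC or its reverse complement GGAATG (the MCAT core) and TGANTCA (the AP-1 site), each searched on both strands. No match of one motif overlapped a match of the other.
Trip6: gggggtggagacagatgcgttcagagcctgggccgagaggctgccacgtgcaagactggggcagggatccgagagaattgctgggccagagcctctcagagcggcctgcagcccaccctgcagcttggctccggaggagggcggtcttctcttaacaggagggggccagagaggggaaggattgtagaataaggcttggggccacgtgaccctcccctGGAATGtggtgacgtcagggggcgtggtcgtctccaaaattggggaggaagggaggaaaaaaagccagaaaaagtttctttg
Ajuba: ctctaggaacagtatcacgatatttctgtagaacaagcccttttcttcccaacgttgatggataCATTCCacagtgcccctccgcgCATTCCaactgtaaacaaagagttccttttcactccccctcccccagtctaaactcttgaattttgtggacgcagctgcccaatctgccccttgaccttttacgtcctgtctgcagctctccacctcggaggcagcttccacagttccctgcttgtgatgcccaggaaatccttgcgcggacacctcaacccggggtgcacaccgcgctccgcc
Zyx: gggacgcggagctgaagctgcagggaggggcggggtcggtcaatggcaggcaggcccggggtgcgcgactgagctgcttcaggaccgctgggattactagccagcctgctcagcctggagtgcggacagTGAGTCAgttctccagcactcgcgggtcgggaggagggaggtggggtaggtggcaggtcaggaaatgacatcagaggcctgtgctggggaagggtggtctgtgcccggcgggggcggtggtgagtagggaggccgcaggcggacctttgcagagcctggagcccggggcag

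The Trip6 promoter held 1 MCAT match, GGAATG, whose first base lay at -32 from the RefSeq start. The Ajuba promoter held 2, both CATTCC, at -186 and -164. Zyx held no MCAT match in this window and 1 AP-1 match, TGAGTCA, at -121. Of the 10 promoters that RefSeq lists for 7 of the members, 3 held a MCAT match, the remaining one at -182 of the second Lpp promoter, and 1 held an AP-1 match. Of all 32851 promoters in the table, 14.66% held a MCAT match, 1.36% held 2 or more, and 7.81% held an AP-1 match. Fhl1, Fhl2 and Fhl3 had neither motif in their listed promoters, and Limd1 had no entry. The build of the array coordinates was not given in the sources used here, so these bases were not placed under the array probes.

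TEAD4 enrichment within the family was concentrated at Trip6, with lower levels at Zyx and in 1 region annotated to Fhl3. The Fhl3 window lay at -7001 bp, at the start of its neighbour Utp11l. The control there (1.21) was above both TEAD4 samples in the main setting. Trip6, Zyx and Fhl3, 3 of the 8 members, had a window in which both TEAD4 samples reached 2-fold over input, a rule that 5.19% of all genes passed. In the main setting only Trip6 among the 8 held a window that also exceeded the control at least 2-fold, against 2.55% of all genes. This count moved with the processing. Zyx passed this rule too under 6 of 14 alternatives and Fhl3 under 2 (normexp and MAD scaling). With windows of 1000 bp on each side no member passed it. The remaining 5 members (Jub, Limd1, Lpp, Fhl1 and Fhl2) did not pass either rule (with MAD scaling, Jub, Limd1 and Fhl2 passed over input and Fhl2 also over the control), and none of the 8 had a window in which both TEAD4 samples were 2-fold or more below input (0.327% of all genes). At the threshold, the lower of the 2 TEAD4 values in the best window was 1.12 for Fhl3, just inside, and 0.81 for Fhl2, just outside. Of the 280 windows of the members, 14 passed the rule over input (6 at Trip6, 5 at Zyx and 3 at Fhl3), against 0.66% of all windows. Of their 296 probes, 11 reached 2-fold over input in each TEAD4 sample, compared with 1.25% of all probes. Since the family was proposed with this contrast in view, these counts are a description.

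**Figure D1:**
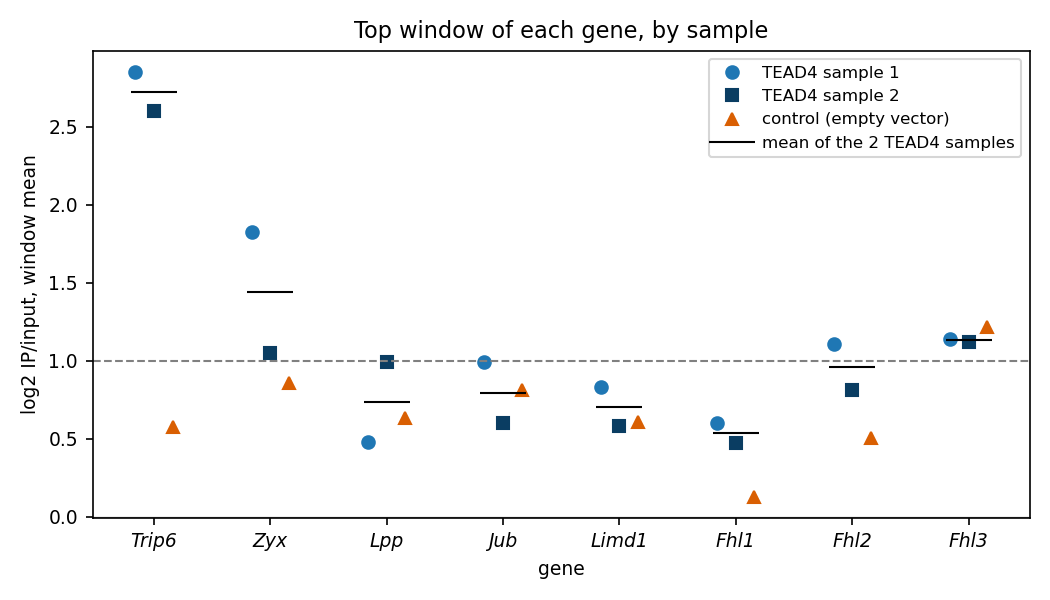
Level of the top window of each gene in TEAD4 sample 1, TEAD4 sample 2 and the control sample (points), with the mean of the TEAD4 samples as a black bar; the vertical axis is log2 IP over input and the dashed line marks 2-fold. Trip6 stands at 2.85 and 2.60 with the control at 0.58, while at Fhl3 the control (1.21) lies above both TEAD4 samples, an order that turns under normexp, loess, no centring and MAD scaling.

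In order of the mean top-window level, the members ran Trip6, Zyx, Fhl3, Fhl2, Jub, Lpp, Limd1, Fhl1. The duplicates of Trip6 did not overlap those of Zyx. Both Fhl3 values fell within the range of the Zyx duplicates, so those neighbours do not differ beyond their spread. The Fhl3 and Fhl2 values did not overlap, but the lower Fhl3 value (1.12) was close to the higher Fhl2 value (1.10). From Fhl2 down to Fhl1 each neighbour's duplicates overlapped the next. Levels of different genes come from different probes, so this order is one of IP-to-input ratios only. As a further description, the top window was chosen in one TEAD4 sample and read in the other. Trip6, Zyx and Fhl3 were at least 2-fold in both readings, against 4.21% of all genes. The windows picked (156 bp at Trip6, 1165 and 924 bp at Zyx, -7001 bp at Fhl3) had already passed over input. These readings therefore repeat that pass and are no further support, and the duplicates may be technical. On this reading Zyx was lost under normexp, Fhl3 under loess and with windows near the start only, and both with windows of 1000 bp on each side and at 3-fold. Trip6 read 2.60 in sample 2 and 2.85 in sample 1, Zyx 1.05 and 1.57, and Fhl3 1.12 and 1.14. Fhl2 read 0.81 and 1.10, and Fhl1 was lowest at 0.19 and 0.28.

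TRIP6, an adaptor of focal adhesions that binds LATS kinases and can enter the nucleus, had the strongest TEAD4 signal of the family. Its top window, 6 probes at chr5:137543586-137544400 centred 156 bp after the annotated start, stood at 2.85 in TEAD4 sample 1, 2.60 in TEAD4 sample 2 and 0.58 in the control. Both TEAD4 samples were far above the control and close to each other. The mean, 2.73 ± 0.18 (SD, n = 2), was 6.62-fold over input and ranked 6 of 16533 genes, with 0.0363% of genes at or above it. Relative to the control the difference was 2.15 on the log2 scale, or 4.43-fold. Trip6 passed over input under all 14 alternative settings and over input and control under 13 of them, the exception being windows of 1000 bp on each side, where the level was 1.79 and the control 0.93. Its 22 probes ran from -181 to 4038 bp.

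Along Trip6 the enrichment formed a single block at the start. The probe at -181 bp read 2.60 and 2.55 in the TEAD4 samples and 1.66 in the control. The probe at 27 bp read 2.99, 1.64 and 0.60, and that at 156 bp 2.87, 1.90 and -0.09. The highest Trip6 probe, at 301 bp, read 3.16, 3.27 and 0.54. Both TEAD4 samples had nearly the same level there, and the control was lower. At 421 bp the values were 2.32, 2.73 and 1.505, and at 692 bp they had dropped to 0.60, 1.13 and 0.90. These 5 adjacent probes were each 2-fold or more over input in both duplicates, a run of a length reached by 0.544% of all genes; run length was a measure chosen after seeing the data. The sixth probe of the window, at -342 bp from the Trip6 start, is annotated inside the neighbouring gene Slc12a9, a solute carrier family member, and read 3.16, 3.51 and -0.75. The next Slc12a9 probe upstream, at -546 bp, read 1.02, 1.59 and 1.00. At -706 bp the values were 1.32, 0.975 and 1.78, and at -867 bp 0.17, 0.12 and 1.40. The control was thus above both TEAD4 samples at -706 and -867 bp. The block thus reached upstream into the annotated body of Slc12a9, so part of the signal is annotated to that gene.

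**Figure D2:**
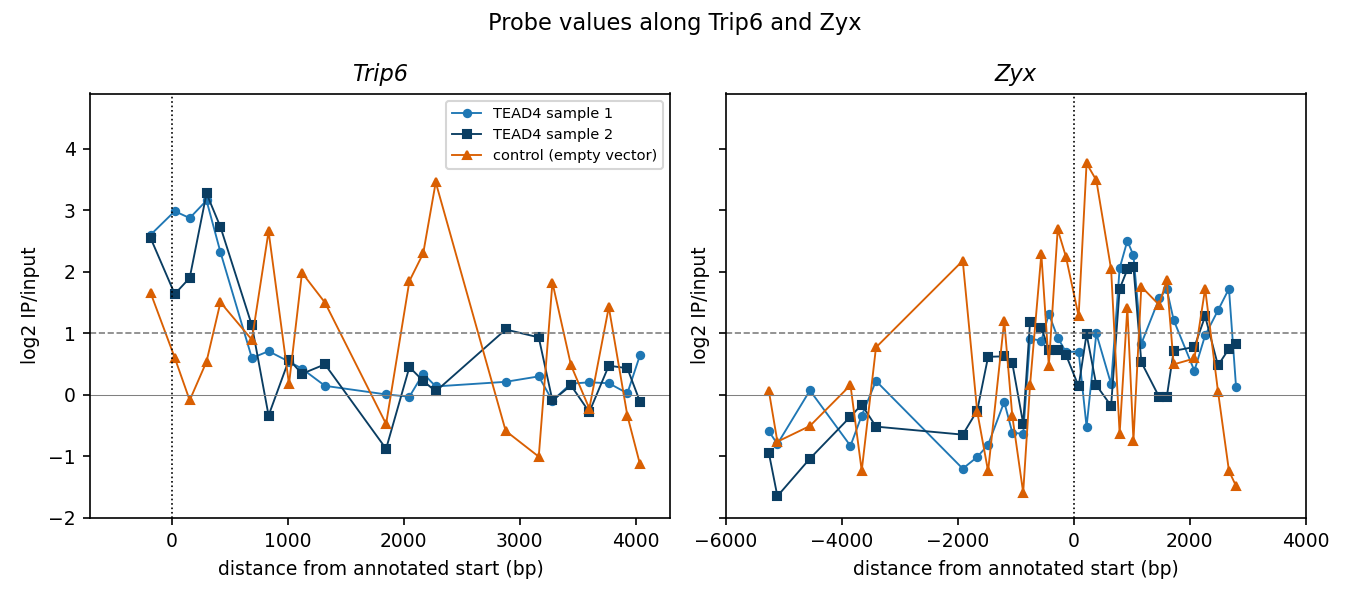
Level of each probe (log2 IP over input) against its distance from the annotated start in bp, for Trip6 (left) and Zyx (right), with both TEAD4 samples and the control; the dashed line marks 2-fold and the dotted line the start. Among the probes shown, both TEAD4 samples peak from -181 to 421 bp at Trip6 and from 791 to 1029 bp at Zyx. Probes annotated to Slc12a9 are not shown, and there the Trip6 block continues upstream (3.16 and 3.51 at -342 bp).

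Zyxin, the founding member of the family and a marker of mature focal adhesions and strained stress fibres, had the next level, with less even duplicates. Its top window, 6 probes at chr6:42280203-42281061 centred 1165 bp after the start, stood at 1.82 and 1.05 in the TEAD4 samples and 0.85 in the control. The mean was 1.44 ± 0.55 (SD, n = 2), 2.71-fold over input, ranking 481 with 2.91% of genes at or above it. The difference from the control was 0.58, close to the SD of the duplicates, and no Zyx window passed the rule over input and control. Within the window the duplicates were alike at 3 adjacent probes and unlike at others. At 791 bp the values were 2.06 and 1.72 with the control at -0.63, at 924 bp 2.50 and 2.04 with the control at 1.42, and at 1029 bp 2.27 and 2.08 with the control at -0.75. Over these 3 probes (chr6:42280203-42280487) the TEAD4 means were 2.28 and 1.95 and the control mean 0.01. A run of at least 3 such probes was reached by 2.76% of all genes. At 1473 and 1603 bp, by contrast, TEAD4 sample 1 read 1.57 and 1.72 while sample 2 read -0.04 at both and the control 1.46 and 1.87. The enriched probes lay inside the annotated gene, and windows within 500 bp of the Zyx start averaged 0.63 and 0.61 in the TEAD4 samples and 2.05 in the control. With windows of 1000 bp on each side, or at 3-fold, Zyx no longer passed over input; it passed over the control as well under 6 of the 14 alternatives, namely loess, no centring, MAD scaling, windows of 250 bp on each side, a 1.5-fold threshold and without TEAD4 sample 2.

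Ajuba and LIMD1, the family members best known as LATS-binding scaffolds and as corepressors of Snail-type factors, did not pass the rule over input. The top window of Jub, at chr14:53529238-53529999 and 2130 bp after the start, read 0.99, 0.60 and 0.81 in TEAD4 sample 1, TEAD4 sample 2 and the control, a mean of 0.79 ± 0.28 (SD, n = 2). The control lay between the duplicates, but below both under normexp, loess, no centring and MAD scaling (for example 0.05 against 1.28 and 0.62 with normexp). Just 2 adjacent Jub probes were at least 2-fold over input in both TEAD4 samples, at 1774 bp (1.94 and 1.21, control -1.36) and at 1946 bp (1.54 and 1.39, control -1.15). The control was below input at both, where the TEAD4 samples were above it. Limd1 read 0.83, 0.58 and 0.61 in its top window, at chr9:123327169-123328099 and 207 bp after the start, a mean of 0.70 ± 0.18 (SD, n = 2). The control again lay between the duplicates, and below both under the same 4 settings. No Limd1 probe was at least 2-fold over input in both TEAD4 samples.

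LPP, a zyxin paralogue abundant in smooth muscle and at focal adhesions, had the most probes of the members, 100 in 3 regions along its long gene. Its top window, at chr16:24309424-24310251 and 1032 bp after the first annotated start, read 0.48, 0.99 and 0.63, a mean of 0.74 ± 0.36 (SD, n = 2), with the control between the duplicates; it lay below both under normexp, no centring and MAD scaling. In the region around the first start the highest TEAD4 mean was thus 0.74 over 32 windows. The regions from 130269 to 135729 bp and from 429211 to 436616 bp reached only 0.10 each, over 30 and 34 windows.

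FHL1 and FHL2, muscle-enriched LIM proteins that bind titin and other sarcomeric partners (FHL2 is also a cofactor of nuclear receptors and of serum response factor), stayed below the rule, and the FHL3 value lay at another gene's start. Fhl2 read 1.10, 0.81 and 0.50 in its top window, 3 probes at chr1:43107510-43107952 and 968 bp after the start, a mean of 0.96 ± 0.20 (SD, n = 2). Both TEAD4 samples were above the control, and 1 of them was under 2-fold. In this window that order held under normexp, loess, no centring and MAD scaling. With at least 5 probes a window, the Fhl2 top window was another, with a TEAD4 mean of 0.75 and the control at 1.86. No Fhl2 probe was 2-fold over input in both: that at 580 bp read 1.94 and 0.84, and that at 968 bp 0.40 and 1.33. Fhl1 had the lowest level of the family, with 0.60, 0.47 and 0.13 in its top window at chrX:53076686-53077492, at -1563 bp from the start, a mean of 0.53 ± 0.09 (SD, n = 2). With loess the control in this window (0.59) lay between the TEAD4 samples (0.70 and 0.46).

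Fhl3, whose product binds actin and MyoD-type factors in muscle cells, read 1.14, 1.12 and 1.21 in its top window, a mean of 1.13 ± 0.01 (SD, n = 2) and 2.19-fold over input. The control was above both TEAD4 samples in the main setting and below both under 4 others: in this window the TEAD4 mean and the control were 1.10 and 0.28 with normexp, 1.10 and 0.47 with loess, 1.12 and 0.58 without centring, and 1.92 and 0.67 with MAD scaling. Fhl3 did not pass over the control in the main setting and did so with normexp and with MAD scaling. The window, 4 probes at chr4:124195723-124196205, lies at -7001 bp from the Fhl3 start and spans the start of Utp11l, the divergent neighbour whose product takes part in ribosomal RNA processing. The nearest Fhl3 probe lay at -1967 bp, so the Fhl3 start itself was not measured, and the median over its 10 windows was -0.46 and -0.45 in the TEAD4 samples. A single probe, at -7001 bp, was at least 2-fold over input in both (1.36 and 1.43, control -0.70), while the control read 3.41 at -7111 bp. Leaving out windows more than 2500 bp from the start, a restriction chosen after seeing the data, removed the Fhl3 call, as did windows of 1000 bp on each side and a 3-fold threshold.

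**Figure D3:**
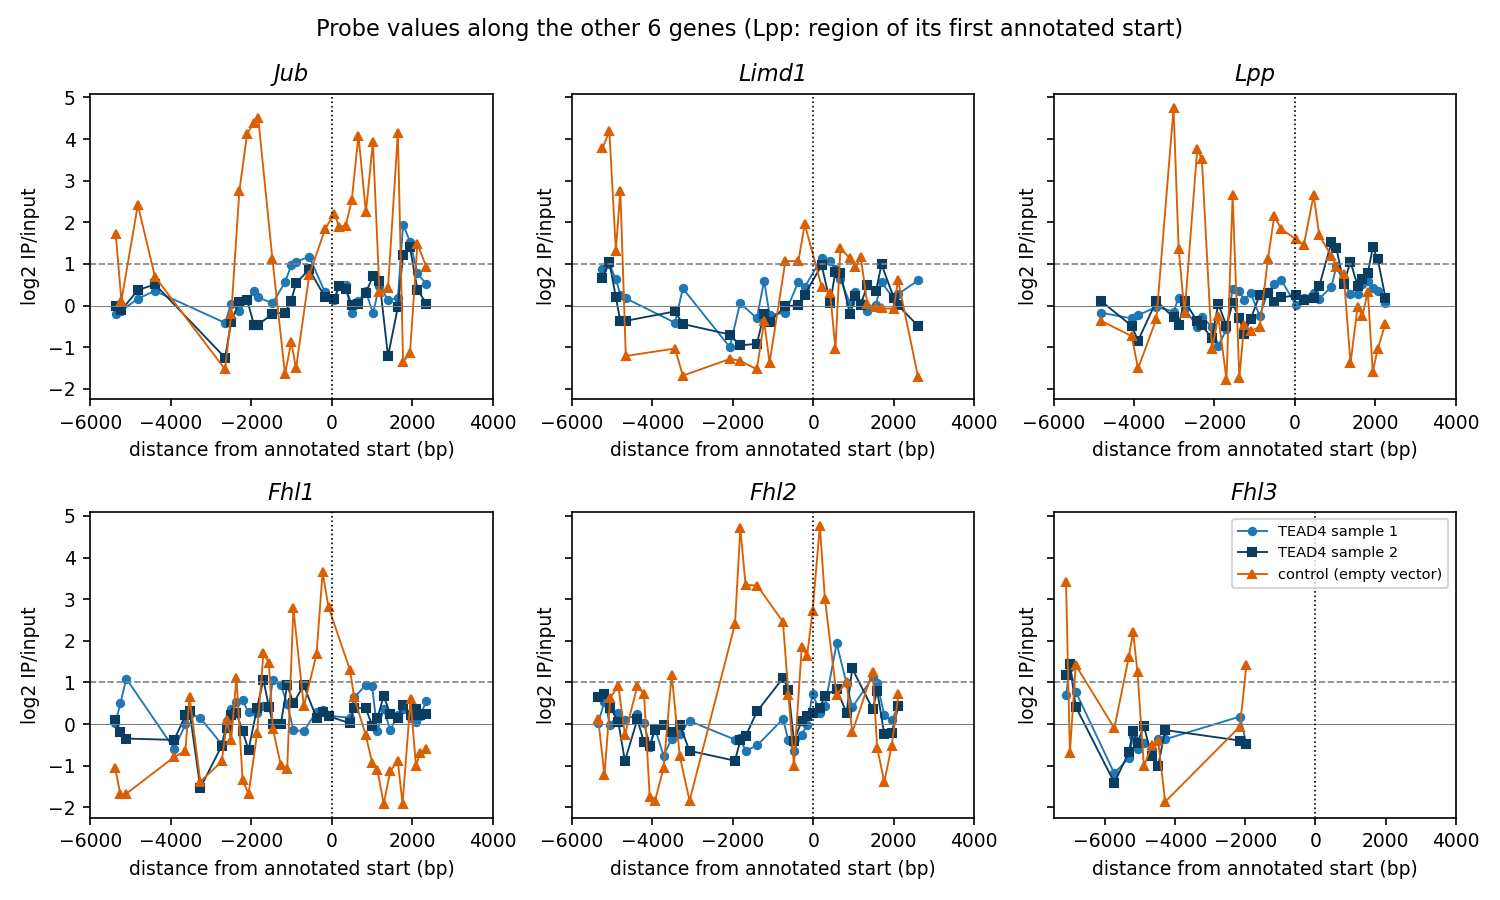
Level of each probe (log2 IP over input) against distance from the annotated start in bp for Jub, Limd1, Lpp (first region only), Fhl1, Fhl2 and Fhl3, with both TEAD4 samples and the control; dashed line, 2-fold; dotted line, start. Both TEAD4 samples reach 2-fold at the same probe at Jub (1774 and 1946 bp) and Fhl3 (-7001 bp) and at no other probe shown. Control values reach 4.51 at Jub, 4.74 at Lpp and 4.76 at Fhl2.

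The control sample was itself at least 2-fold over input in some window of all 8 members, a rule that 85.6% of all genes passed. With normexp background correction in place of the processed signals, 0 of the 8 members and 3137 of all genes held such a window. The highest control windows were 3.79 at Fhl2 (-1397 bp), 3.38 at Jub (-1828 bp), 3.01 at Limd1 (-5243 bp), 2.71 at Fhl1 (-80 bp), 2.69 at Zyx (84 bp), 2.64 at Lpp (-2742 bp), 1.78 at Trip6 (2277 bp) and 1.21 at Fhl3 (-7001 bp). At these positions the mean TEAD4 level was 0.55 or lower, except at Fhl3, where it was 1.13. Within 500 bp of the start the control exceeded both TEAD4 samples at 6 of the 7 members measured there, against 80.1% of all genes; with normexp this held at 1 of the 7 (Fhl2) and at 7364 genes. Trip6 was the one with the opposite order, at 2.57 and 2.31 for the TEAD4 samples and 0.70 for the control. Jub, with 0.29 and 0.27 against 2.23, and Fhl2, with 0.20 and 0.35 against 2.07, were at the other end. Control IP signal was not well above background at 12 of the 296 member probes, and TEAD4 IP signal was well above it at all of them. Over all spots, IP signal was well above background at 94.5% and 95.7% on the control arrays and at 99.86% to 99.96% on the TEAD4 arrays.

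Against the control alone, 5 of the 8 members (Trip6, Zyx, Lpp, Jub and Fhl1) held a window at least 2-fold higher in both TEAD4 samples, as did 29.9% of all genes. Without centring all 8 did, with windows of 1000 bp on each side 2 (Lpp and Fhl1), with at least 5 probes a window 2 (Trip6 and Fhl1), and at 3-fold 1 (Trip6). At Trip6 this was the top window. At the others the control fell below input. Zyx at 2798 bp read 1.08 and 0.69 with the control at -0.89, Jub at -888 bp 0.94 and 0.34 with the control at -0.83, and Fhl1 at -5386 bp 0.54 and -0.14 with the control at -1.47. At Lpp the window lay 434536 bp into the gene and read 0.09 and 0.10 with the control at -1.24, so the TEAD4 samples there were near input.

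The duplicates tracked each other along some members more than others. Over the probes of a gene, the correlation of the TEAD4 samples was 0.90 at Fhl3 (13 probes), 0.85 at Trip6 (22), 0.67 at Jub (30), 0.66 at Zyx (33), 0.62 at Limd1 (28), 0.49 at Fhl2 (33), 0.35 at Lpp (100) and 0.08 at Fhl1 (37), against 0.41 over all 471870 kept probes. The mean TEAD4 level correlated with the control at -0.04 along Trip6, and from -0.31 at Jub to 0.55 at Limd1 for the others, against 0.20 over all probes. Probes of a gene share their arrays and overlap in the fragments they read, so these are descriptions. The top window lay after the start in 6 of the 8 members, in 51.4% of all genes and in 47.6% of the 858 genes that passed over input.

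**Figure D4:**
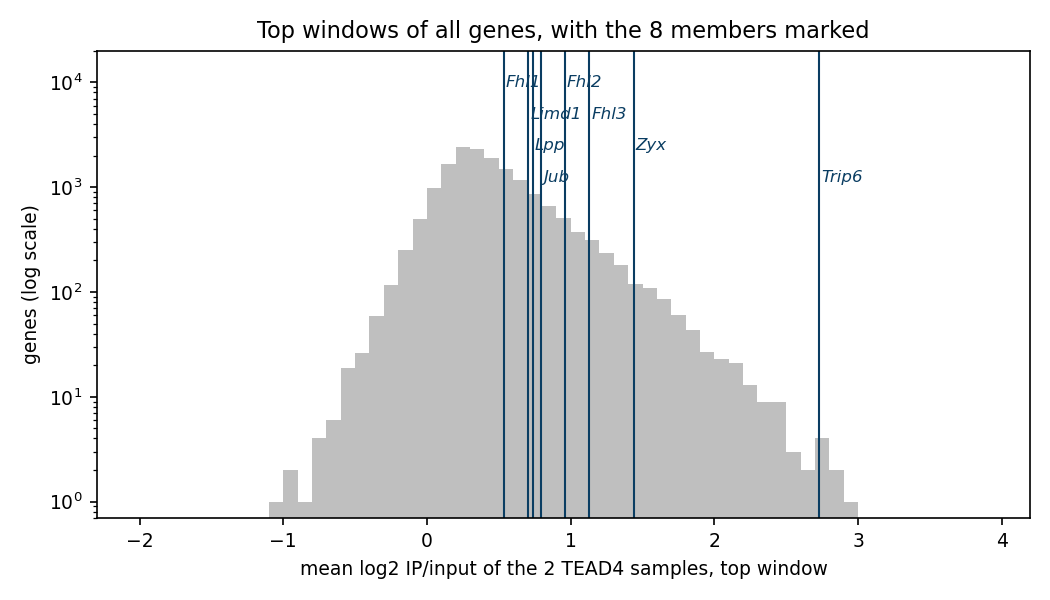
Distribution over 16533 genes of the mean TEAD4 level in the top window (log2 IP over input, horizontal axis; number of genes on a log scale, vertical axis), with a line at each of the 8 members. Trip6 lies in the upper tail at 2.73, Zyx at 1.44 and Fhl3 at 1.13, and the other 5 between 0.53 and 0.96.

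The median top window over all genes was 0.37 and 0.43 in the TEAD4 samples and 0.70 in the control, over a median of 25 windows a gene. Over the 8 members the medians were 1.05, 0.90 and 0.62, over a median of 29 windows. Among their remaining relatives, none passed over input: Wtip, the third LIM protein of the ajuba group, read 0.64 and 1.01 with the control at 2.22, Fhl4 read 0.33 and 0.25 with the control at 1.85, and Fhl5 read -0.14 and 0.40 with the control at -1.56.

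Genes around the family were followed through 6 lists, of which 90 of 102 genes were measured. Over all lists 16 genes (17.8%) passed over input, with a median top window of 0.64, against 5.19% and 0.40 over all genes. Of the focal adhesion and actin partners of the zyxin family 6 of 16 passed, with a median of 0.87: Enah, an actin polymerase cofactor that zyxin recruits, stood at 1.75 ± 0.25 (SD, n = 2), and Bcar1, the p130Cas scaffold bound by TRIP6, at 1.51 ± 0.11. Talin (Tln1), which links integrins to actin, stood at 1.37 ± 0.35, and Parva, which binds integrin-linked kinase, at 1.26 ± 0.24 with the control at 3.39. Of these 6, 2 also passed over the control, Enah (control -0.30) and Bcar1 (control -1.12). Over all lists 7 of the 90 measured genes passed over input and control, against 2.55% of all genes. Among the Hippo and YAP partners, 1 of 6 passed, Wwtr1, which encodes the coactivator TAZ, at 1.36 ± 0.19 with the control at 0.36.

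Of 15 partners of FHL proteins 4 passed, with a list median of 0.68. Runx2, an osteoblast transcription factor, stood at 1.40 ± 0.20 (SD, n = 2), Jun, a subunit of AP-1, at 1.36 ± 0.29, Itga7, the laminin-binding integrin of muscle, at 1.22 ± 0.11, and Ttn, the sarcomeric spring protein titin, at 1.21 ± 0.19. Runx2, Jun and Ttn passed over the control as well, while the Itga7 control (1.18) lay between its duplicates (1.30 and 1.14). Of the other LIM proteins of the cytoskeleton 5 of 36 passed, with a median of 0.62. Among them were Crip1 (1.64 ± 0.41), Lims1, the integrin-linked PINCH protein (1.54 ± 0.15), Mical1, an actin-oxidising enzyme (1.39 ± 0.13), and Crip2 (1.30 ± 0.33). Of these 5, 2 also passed over the control, Mical1 and Crip1, the latter in a window other than its top one. In the top window the Crip1 control lay between its duplicates (1.35 and 1.93). The Crip2 control (1.06) was level with its lower duplicate (1.06). At Lims1 and Mical1 the control lay below both duplicates. Of the nuclear LIM proteins none of 14 passed, with a median of 0.44, against 5.19% of all genes. No gene of any list was 2-fold below input in both TEAD4 samples, a rule that only 0.327% of all genes passed.

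**Figure D5:**
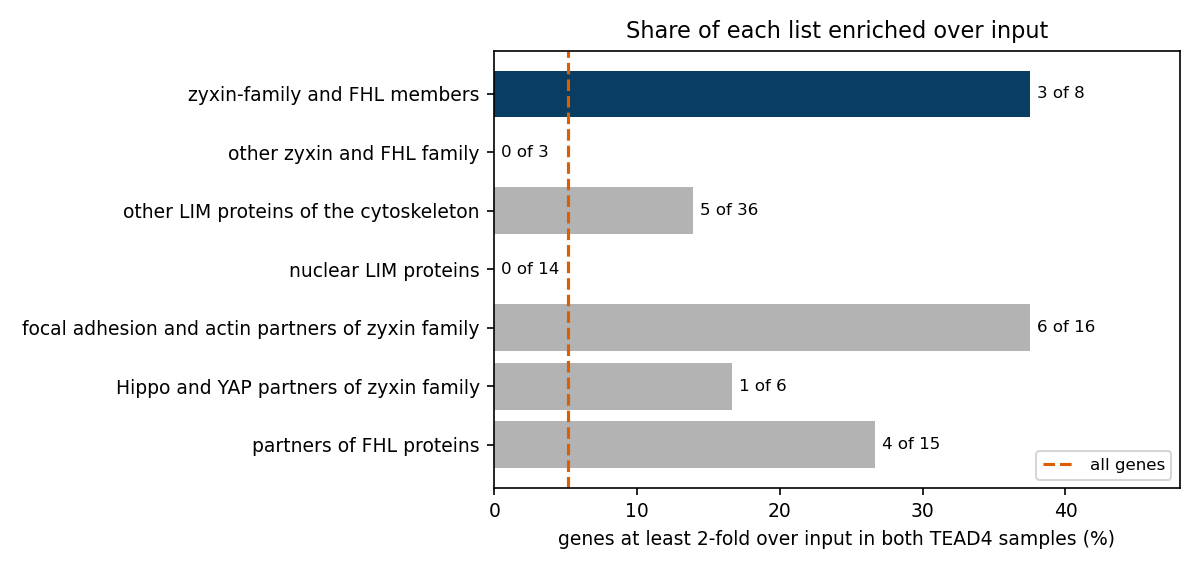
Share of the genes in each list in which some window reached 2-fold over input in both duplicates (bars, percent, with counts beside them), with the share over all genes as the dashed line at 5.19%. The members (3 of 8) and the focal adhesion and actin partners (6 of 16) have the longest bars. The nuclear LIM proteins (0 of 14) and the other zyxin and FHL family genes (0 of 3) have none.

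The genes with top-window values most like those of a member were found by Euclidean distance over the 3 samples. For Trip6 they were Ect2 (distance 0.21, with 2.64, 2.59 and 0.58), Fscn1 (0.49) and S100a11 (0.54). For Zyx they were Nsun4 (0.20), Jph2 (0.23) and Crebl2 (0.24), and for Fhl3 they were Tmco4 (0.05), Trhr2 (0.07) and Vgf (0.07). Each likeness rests on 3 values.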

How the data were processed

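The members and the gene lists were chosen with earlier results of these data known, so no result here carries a p-value. The intensity values deposited by the authors were made, per the file headers, by Agilent's Feature Extraction software (version 9.5.3.1), which subtracted background, removed a spatial trend and applied a linear dye scaling to each channel. The authors' deposited log10 ratios are log10 of IP (Cy5) over input (Cy3) from those intensities, and the deposited series table equals them on all 6 arrays (largest difference 0.0). The genome build of the probes was not given in the sources used here.

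IP over input was taken from the processed intensities, put on the log2 scale and centred on the array median (Python 3.11.15, numpy 2.4.6, pandas 2.3.3). Left out were control spots, probes lacking a chromosomal position and spots marked non-uniform on any array by the deposited flags. This kept 236180 and 235690 probes and gave 428020 windows. The window calculation was tested on simulated data. A gene passed a rule of size when 1 window reached 2-fold in both TEAD4 samples. Gene symbols are those of the array. Alternatives included normexp (offset 50) and loess in limma 3.58.1 (R 4.3.3). The number of arrays limits the precision, since the 2 TEAD4 samples give a SD with 1 difference behind it and the control gives none. The genes named beside the 8 members were, from each list, up to 4 that passed over input with the largest TEAD4 mean, and for each member that passed, the 3 genes nearest in the 3 top-window values. Neighbouring genes that share a member's window and relatives outside the member list were named after their values were seen.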

Additional observations from a re-analysis of the deposited data

How the results depend on the processing

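There were 14 alternatives (1 of them, windows within 2500 bp of the start, chosen after seeing the data, as were the alternatives for windows above the control alone and for the control at the start). The top window of every member had a TEAD4 level above 0 (log2) under each alternative that gave a value (lowest 0.43, at Fhl1). That level was not always 2-fold. The top window is the highest of the gene and could change with the setting, so a level above 0 was nearly fixed in advance. In the window of the main setting, the normexp mean was 0.18 at Fhl1 and 0.32 at Lpp. In that window the order against the control did not keep. Fhl3 went from a control above both TEAD4 samples to below both under normexp, loess, no centring and MAD scaling. Under the same settings Jub and Limd1 went from a control between them to below both. With loess Fhl1 went from a control below both to between them. The control value of some members turned from above to below input, for example from 0.63 to -0.59 for Lpp with normexp, where its top window was chosen anew. Trip6 passed over input in 14, Zyx in 12, Fhl3 in 11, Fhl2 in 3, Jub in 2, Limd1 in 1, and Lpp and Fhl1 in 0. The Trip6 top window ranged from 1.79 to 4.65, Zyx from 1.22 to 2.46 and Fhl3 from 1.06 to 1.92. With normexp, 2 members (Trip6 and Fhl3) passed over input and control, 0 members and 3137 genes had control enrichment, 1 member and 7364 genes had the control highest at the start, and 554 genes passed over input. With loess, and without centring, 2 members (Trip6 and Zyx) passed over input and control, and without centring 8 passed above the control alone. Scaled to a common median absolute deviation (MAD), 6 members passed over input, 4 (Trip6, Zyx, Fhl2 and Fhl3) over input and control and 6 when the window was picked in the other sample, with 38 list genes, 3493 genes over input and 2026 over input and control. With windows of 250 bp on each side, 2 members (Trip6 and Zyx) passed over input and control. With 1000 bp, 1 member passed over input, 0 over input and control, 2 above the control alone and 1 when picked in the other sample, with 9 list genes, 368 genes over input and 161 over both. With at least 5 probes a window, 2 members passed above the control alone and 265 genes passed over both. At 1.5-fold, 5 members passed over input, 2 (Trip6 and Zyx) over input and control and 5 when picked in the other sample, with 35 list genes, 3335 genes over input and 1506 over both. At 3-fold, 1 member passed over input, 1 above the control alone and 1 when picked in the other sample, with 0 list genes, 129 genes over input and 68 over both. Leaving out either TEAD4 sample, so that 1 sample alone had to pass, gave 3 to 4 members over input, 1 to 2 over input and control (Zyx too, without sample 2), 5 to 6 above the control alone, 0 to 1 below input (Zyx, without sample 2), 23 to 32 list genes, 1331 to 2566 genes over input and 640 to 1366 over both. The cause of these shifts was not tested, beyond the stricter or looser construction of the threshold, window and sample settings. No paired analysis was possible because the control is 1 sample. In the control, IP signal was well above background at 94.5% and 95.7% of spots on its 2 arrays. Whether the remaining spots limit low values was not tested.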
